A study of Mus musculus with 79 samples.

Results

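Embryoid bodies (EBs) are aggregates in which mouse embryonic stem cells (ESCs) leave pluripotency and form cells of the germ layers. The samples described here are the 3 RNA-seq libraries of day 6 EBs (EB D6) and the 3 of day 4 EBs (EB D4) from TET KO, an ESC line labelled as knocked out for Tet1, Tet2 and Tet3. They were chosen by their labels and are 6 of the 79 libraries of the study. All 35230 genes of the deposited table were read, and the 15267 genes that reached 1 RPKM in 2 or more libraries of the study were tested. The study kept ESCs in 2i/Lif and let them form EBs or epiblast-like cells. It used 4 lines, namely TET KO, its parent TET WT, DNMT KO, knocked out for the 3 DNA methyltransferase genes Dnmt1, Dnmt3a and Dnmt3b, and the parent of that line, DNMT WT. The same 2 days in TET WT (3 libraries at EB D6 and 3 at EB D4) and in DNMT WT (3 and 2 libraries) show where TET KO differs, and the labels give no agent added to any EB group. Each genotype is 1 line, so the knockout and other differences between lines cannot be told apart. The labels do not say that the libraries of a group came from separate cultures, so p-values measure only the spread between these libraries.

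TET enzymes oxidise 5-methylcytosine and so start the removal of DNA methylation, while DNMT enzymes add or copy it. In the mouse embryo, WNT and NODAL signals set up the primitive streak, where cells switch on T and Eomes and move out as mesoderm and definitive endoderm. BMP signals then favour lateral plate and extraembryonic mesoderm, marked by Hand1, Hand2 and Foxf1, and from the mesoderm that carries Kdr the first endothelial and red cells form under Tal1, Gata1 and Runx1. EBs pass through similar states without the embryo's layout.

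In the 6 TET KO libraries the totals behind the RPKM scaling, recovered from the steps of the values, were 10.8 to 11.7 megareads. The recovered reads on genes summed to 10.3 to 11.2 megareads. Mitochondrially encoded genes took 1.38 to 1.53% of these gene reads at EB D6 and 1.52 to 1.87% at EB D4. Library 2 of TET WT EB D4 stands apart, with a scaling total of 7.76 megareads and 6.27 megareads on genes. The predicted gene Gm42418 took 15.1% of its gene reads, and values without this library are given where they matter. No source used here gives the exons deleted in the Tet genes, so gene-level values do not check the knockout. Tet1 stood at 4.47, 3.89 and 4.37 RPKM in TET KO EB D6, against 4.04, 4.63 and 4.77 RPKM in TET KO EB D4, and was not called. Tet2 stood at 1.86, 2.05 and 2.12 RPKM at EB D6, against 0.810, 1.01 and 1.15 RPKM at EB D4, a log2 change of 0.76, which voom put at 1.02. Tet3 rose to 4.003, 3.64 and 3.85 RPKM at EB D6, against 1.33, 1.57 and 1.69 RPKM at EB D4, by 1.10 on the log2 scale (limma adjusted p = 2.29e-08), and by 1.20 in TET WT.

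Between EB D4 and EB D6, TET KO cells lost pluripotency and primitive streak transcripts and gained those of lateral plate mesoderm, BMP signalling and posterior Hox genes. A gene was called changed when limma's adjusted p was below 0.05 and the log2 change of RPKM + 0.5 was at least 1 in either direction, a scale that understates changes of low genes. By this rule 1407 genes were called, which is 9.22% of those tested, 558 of them higher at EB D6 (3.65%) and 849 lower (5.56%). The median change of all genes tested was -0.01, and 6172 of them had a limma adjusted p below 0.05 whatever the size of the change. The 3 libraries of EB D6 lay wholly outside the range of the 3 of EB D4 for 8945 genes, or 58.6%, so a lack of overlap was common. These are bulk samples, in which fewer cells of a type and less RNA per cell cannot be told apart.

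**Figure D1:**
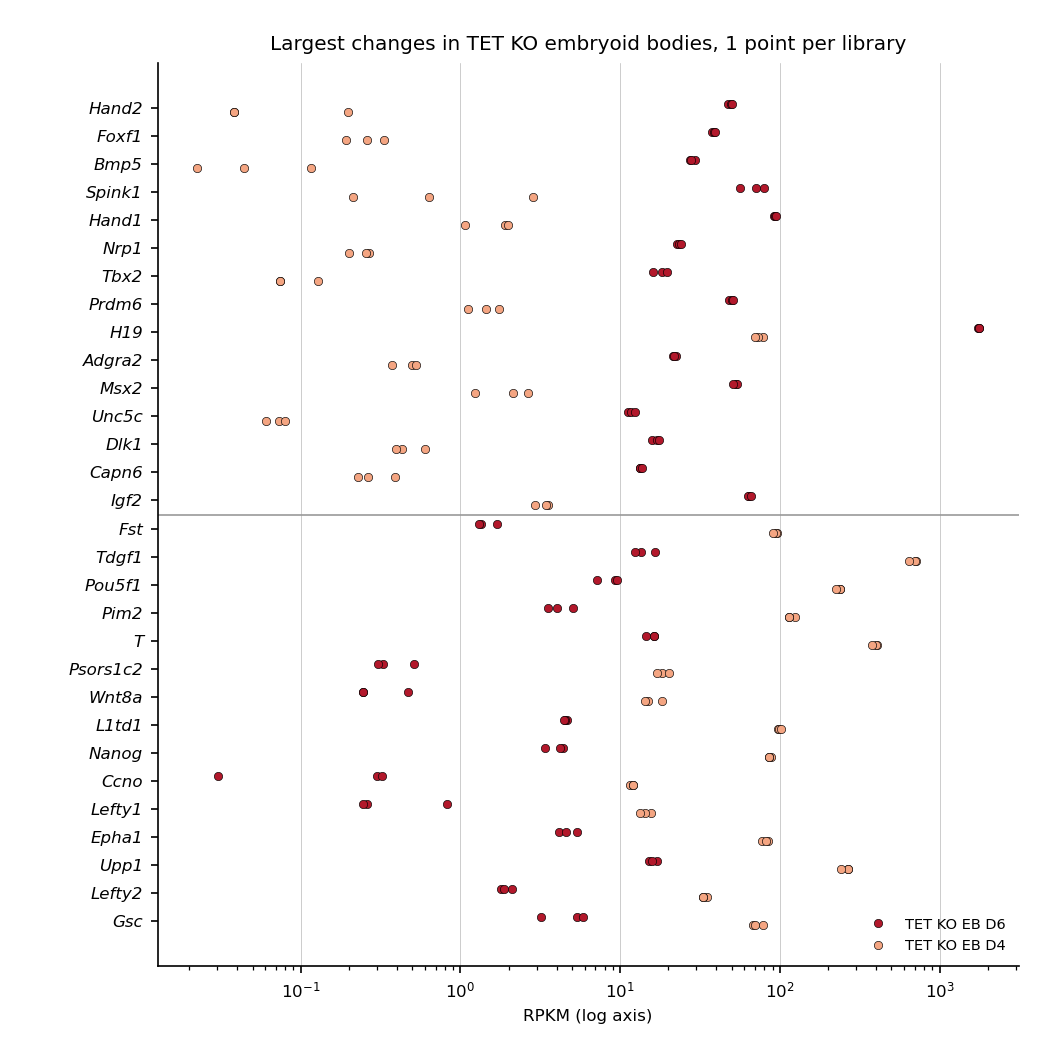
RPKM on a log axis for the 15 largest rises (above the line) and the 15 largest falls (below it) in TET KO EBs, 1 point per library, with EB D6 drawn above EB D4 for each gene. By the choice of these genes the 3 EB D6 points lie clear of the 3 EB D4 points, from Hand2 (47.4 to 49.95 RPKM at EB D6) to Fst (1.31 to 1.70 RPKM at EB D6).

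Most pluripotency genes fell. Of 10 general pluripotency genes, 7 fell and 0 rose (list median -2.20, against -0.01 for all genes), and of 16 naive genes 11 fell and 1 rose (median -1.36). In TET WT 7 of the general genes fell and 0 rose (median -3.17), and 10 of the naive genes fell and 2 rose (median -1.71). Pou5f1, which encodes the core pluripotency factor OCT4 (GRCm38 chr17:35506018-35510772), had 9.30, 7.13 and 9.50 RPKM in TET KO EB D6, against 238, 237 and 225 RPKM in TET KO EB D4. The groups were far apart, with a log2 change of -4.69 ± 0.14 (SE, adjusted p = 8.33e-18). Nanog, another core factor, had 4.36, 3.39 and 4.21 RPKM at EB D6, against 87.7, 85.0 and 85.8 RPKM at EB D4 (log2 change -4.28). Tdgf1, the NODAL co-receptor also called Cripto, showed the largest fall of this list, to 16.6, 13.6 and 12.4 RPKM at EB D6, against 710, 701 and 646 RPKM at EB D4 (log2 change -5.56). L1td1, an RNA-binding protein gene of pluripotent cells, and Utf1, a chromatin factor gene, fell by 4.31 and 2.71, and Dppa5a, a naive marker, fell by 3.25. Sox2 fell by 1.70, to 6.86 to 7.87 RPKM at EB D6, against 24.0 to 27.1 RPKM at EB D4.

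Some members of these lists were not lost. Lin28a, an RNA-binding inhibitor of let-7 maturation, had 123, 117 and 121 RPKM at EB D6, against 113, 107 and 114 RPKM at EB D4. Sall4, a zinc finger factor gene, and Trim71, a let-7 target, had log2 changes of 0.39 and 0.51 and were not called. Tbx3, the 1 naive gene that rose (log2 change 2.68), is also a factor of early mesoderm and heart. Of 12 formative and primed genes 9 fell and 1 rose (median -1.96), among them Fgf5, the classical epiblast growth factor, to 7.81, 8.20 and 9.32 RPKM at EB D6, against 61.1, 64.3 and 63.4 RPKM at EB D4. Cdh2, which encodes N-cadherin, was at 21.7 to 22.3 RPKM at EB D6 and 21.6 to 25.5 RPKM at EB D4 and was not called.

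The primitive streak genes of TET KO EBs stood high at EB D4 and fell together. Of 11 tested, 9 fell and 0 rose, with a median of -2.41. T, which encodes Brachyury, the T-box factor that defines the streak (chr17:8434423-8442496), had 16.2, 16.2 and 14.6 RPKM in TET KO EB D6, against 404, 398 and 379 RPKM in TET KO EB D4. The groups were far apart for T, with a log2 change of -4.61 ± 0.16 (adjusted p = 4.80e-16). Mixl1, a homeobox gene of the streak (chr1:180693043-180697034), had 14.1, 16.8 and 13.5 RPKM at EB D6, against 185, 187 and 185 RPKM at EB D4 (log2 change -3.61). Wnt8a, a WNT ligand of the streak, fell by 4.32, Nodal, the ligand itself, by 3.12 and Fgf8, a streak growth factor, by 2.54. Snai1, which drives the loss of epithelial character, had 13.96 to 14.97 RPKM at EB D6 and 13.2 to 16.6 RPKM at EB D4, so its groups overlapped.

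Organiser and definitive endoderm genes moved in both directions. Of 10, 5 fell and 1 rose, with a median of -1.02. Gsc, a homeobox gene of the organiser (chr12:104471209-104473330), had 3.18, 5.34 and 5.88 RPKM at EB D6, against 77.9, 68.3 and 69.7 RPKM at EB D4 (log2 change -3.81 ± 0.22). Lhx1, a LIM homeobox gene needed for the head organiser, fell to 14.7, 11.9 and 11.3 RPKM at EB D6, against 74.3, 74.6 and 75.0 RPKM at EB D4, and Cer1, which encodes a secreted inhibitor of NODAL and BMP, fell by 3.03. Cxcr4, the receptor that marks definitive endoderm and mesoderm, rose by 1.80. Sox17, an endoderm factor gene, stood at 13.2 to 14.0 RPKM at EB D6, against 6.29 to 7.38 RPKM at EB D4, a log2 change of 0.93 that was below the size asked for, and Foxa2 at 10.9 to 14.0 RPKM, against 18.1 to 19.3 RPKM, was not called either. Of 11 genes of nascent and paraxial mesoderm, 3 fell (Tcf15 by 2.70, Msgn1 by 1.55 and Dll3 by 1.37) and 1 rose (Cited1 by 2.17).

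The promoters of T and Gsc are shown because these genes are among the largest falls of the streak and organiser lists. Those of Hand2 and Bmp5 are shown because they head the rises described next. Each is the 250 bases before the RefSeq start (GRCm38.p6), read 5′ to 3′ on the gene's strand, and capitals mark matches, on either strand, to a GATA word, which is AGATAA or the word AGATAG or, with a first base T, TGATAA or the word TGATAG, or to a TCF/LEF word, which is CTTTGAT or the word CTTTGAA. T is at chr17:8434173-8434422 (plus strand), Gsc at chr12:104473237-104473486 (minus strand), Hand2 at chr8:57320733-57320982 (plus strand) and Bmp5 at chr9:75775115-75775364 (plus strand).
T: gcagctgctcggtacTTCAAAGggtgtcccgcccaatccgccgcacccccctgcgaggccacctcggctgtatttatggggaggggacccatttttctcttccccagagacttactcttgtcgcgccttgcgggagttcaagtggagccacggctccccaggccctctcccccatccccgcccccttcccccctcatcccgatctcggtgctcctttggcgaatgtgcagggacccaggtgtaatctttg
Gsc: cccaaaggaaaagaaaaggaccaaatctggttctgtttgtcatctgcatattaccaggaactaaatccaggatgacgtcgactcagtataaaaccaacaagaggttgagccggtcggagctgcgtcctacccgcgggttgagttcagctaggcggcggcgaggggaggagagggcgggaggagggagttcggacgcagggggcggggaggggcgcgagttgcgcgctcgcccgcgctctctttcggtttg
Hand2: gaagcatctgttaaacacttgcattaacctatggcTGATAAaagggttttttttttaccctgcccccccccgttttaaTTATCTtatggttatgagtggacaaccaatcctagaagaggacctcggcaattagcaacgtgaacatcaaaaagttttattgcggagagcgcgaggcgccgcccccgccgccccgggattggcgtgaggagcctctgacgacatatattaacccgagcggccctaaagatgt
Bmp5: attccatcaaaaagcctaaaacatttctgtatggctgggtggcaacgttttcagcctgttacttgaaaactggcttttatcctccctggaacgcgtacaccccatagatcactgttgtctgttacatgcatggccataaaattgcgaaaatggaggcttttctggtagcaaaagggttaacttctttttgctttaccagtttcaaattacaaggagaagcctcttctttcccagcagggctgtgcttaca
The T window holds 1 TCF/LEF match and 0 GATA matches, and the Hand2 window holds 2 GATA matches and 0 TCF/LEF matches. The windows of Gsc and Bmp5 hold 0 of either. A TCF/LEF word occurs in 7.48% of all 32851 RefSeq promoters of this length, in 5.78% of the 779 promoters of genes called lower and in 4.38% of the 480 of genes called higher. A GATA word occurs in 26.5% of all promoters, in 20.4% of those of genes called lower and in 20.8% of those of genes called higher. A match of letters is no evidence that a factor binds there.

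Genes of lateral plate and extraembryonic mesoderm rose almost as a block, with 12 of 14 higher, 0 lower and a median of 3.08. Hand2, a bHLH factor gene of heart, limb and lateral plate (chr8:57320983-57324633), had 47.4, 49.6 and 49.95 RPKM in TET KO EB D6, against 0.198, 0.0381 and 0.0379 RPKM in TET KO EB D4, where its 3 libraries held 5, 1 and 1 reads. Hand2 had the largest rise among the named genes, with a log2 change of 6.40 ± 0.13 (adjusted p = 9.53e-21). Hand1, its paralogue of extraembryonic mesoderm, trophoblast and heart (chr11:57828705-57832818), had 92.3, 92.6 and 94.2 RPKM at EB D6, against 1.91, 1.98 and 1.07 RPKM at EB D4 (log2 change 5.47). Foxf1, a forkhead factor gene of splanchnic and extraembryonic mesoderm, had 37.5, 38.6 and 39.2 RPKM at EB D6, against 0.193, 0.334 and 0.258 RPKM at EB D4 (log2 change 5.68). Msx2 rose by 4.46, Pitx1, a hindlimb homeobox gene, by 4.09 and Tbx20 by 3.60. The 2 members not called were Gata6 (log2 change 0.58) and Tbx4 (0.26).

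The BMP pathway rose with them, 13 of 14 members higher and 0 lower (median 2.37), and 4 of its members are also in the mesoderm list or the Nodal list. Among ligands, Bmp5 had 27.4, 29.3 and 27.7 RPKM at EB D6, against 0.116, 0.0223 and 0.0443 RPKM at EB D4 (log2 change 5.68 ± 0.11, adjusted p = 9.53e-21). Bmp4 had 73.8, 78.5 and 79.8 RPKM at EB D6, against 7.11, 6.70 and 6.90 RPKM at EB D4, and Bmp2 rose by 2.93. Among targets and feedback inhibitors, Id2, a dominant-negative bHLH gene, rose to 36.1, 35.3 and 37.02 RPKM, against 2.75, 2.65 and 1.94 RPKM at EB D4. Id1 rose by 1.48, Id3 by 2.15 and Smad6, which encodes an inhibitory SMAD, by 2.89. Bambi, a decoy receptor gene, rose by 2.59 and Nog, whose product binds BMPs, by 1.94. Id4 was the member not called (log2 change -0.25). The rise was not particular to TET KO, as 12 of the 14 rose in TET WT (median 3.18) and in DNMT WT (median 3.33). Compared with TET WT, the change was more negative in TET KO for 5 and more positive for 2.

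Members of the Nodal pathway went mostly the other way, with 6 of 11 lower and 2 higher (median -1.94). The feedback inhibitor Lefty1 had 0.829, 0.260 and 0.244 RPKM at EB D6, against 15.6, 14.3 and 13.4 RPKM at EB D4 (log2 change -4.03), and Lefty2 had 2.1004, 1.79 and 1.87 RPKM, against 34.9, 32.9 and 33.2 RPKM (log2 change -3.82). Fst, which encodes follistatin, a secreted binder of activin, showed the largest fall among the named genes, to 1.34, 1.70 and 1.31 RPKM at EB D6, against 95.7, 95.0 and 90.2 RPKM at EB D4 (log2 change -5.60 ± 0.11, adjusted p = 9.53e-21). The co-receptor gene Cfc1 (1.97) and the inhibitory SMAD gene Smad7 (1.09) rose. Of 13 WNT targets and feedback genes, 3 rose (Lgr5 by 1.82, Nkd1 by 1.39 and Notum by 1.19) and 2 fell (Sp5 by 2.41 and Cdx1 by 1.42), while Axin2, the general WNT target, had 23.4 to 24.9 RPKM at EB D6 and 27.7 to 30.5 RPKM at EB D4 and was not called. In the Notch pathway the targets Hey1 (1.56) and Hey2 (2.12) rose among 12 genes and 0 fell, and of 13 genes of the retinoic acid pathway Crabp1 (3.42) and Rarb (2.01) rose and Dhrs3 fell by 1.35.

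**Figure D2:**
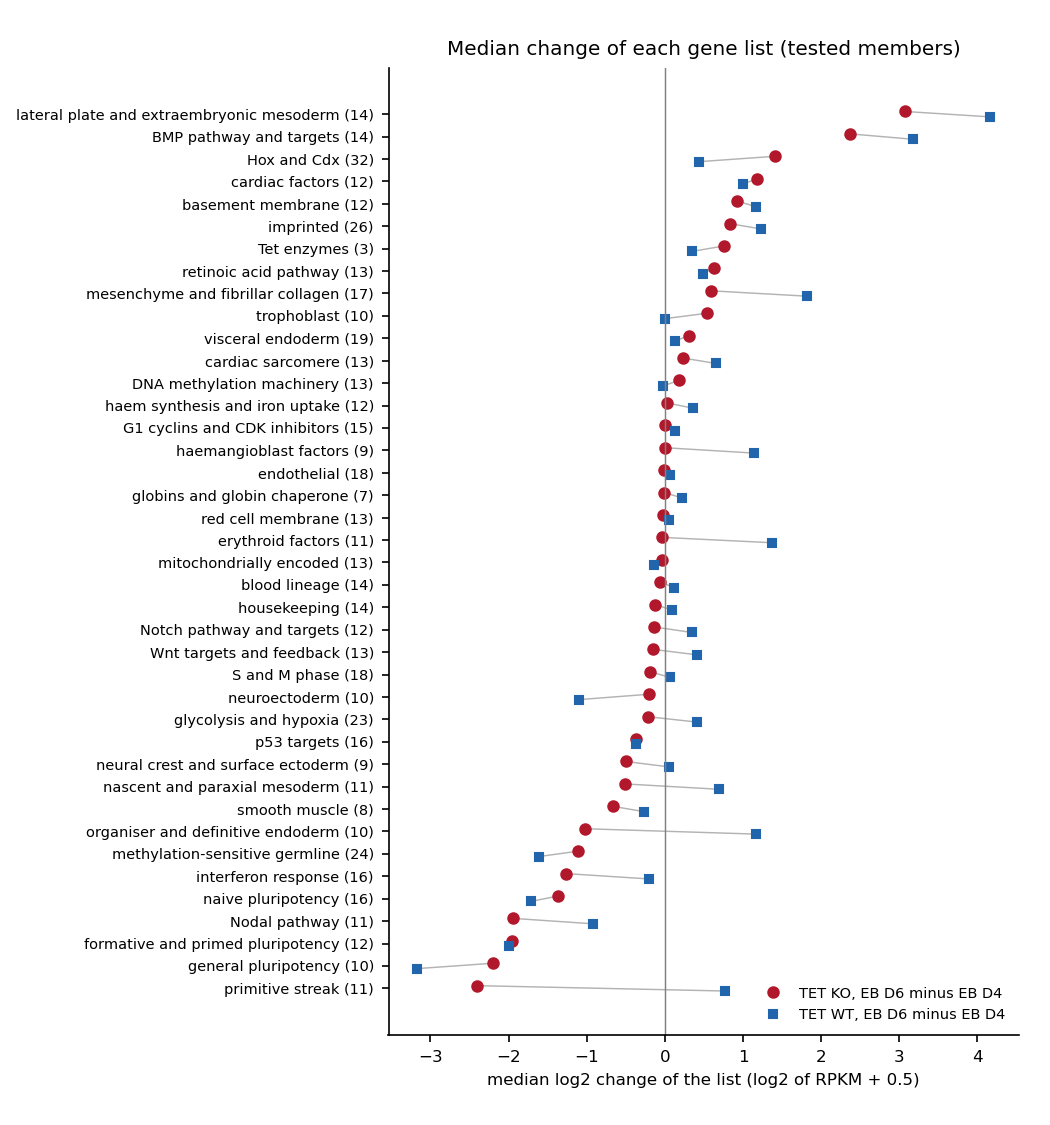
Median log2 change, EB D6 minus EB D4, of the tested members of each of 40 gene lists in TET KO (red circles) and TET WT (blue squares), with the number of tested members in brackets. In TET KO the medians run between 3.08 (lateral plate and extraembryonic mesoderm) and -2.41 (primitive streak), and the streak list lies at 0.78 in TET WT.

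Hox and Cdx genes, which give posterior identity, rose widely. Of 32 tested, 24 were higher and 1, Cdx1, was lower (median 1.41). Hoxb6 had 5.15, 6.295 and 4.45 RPKM in TET KO EB D6, against 0.0426, 0.0411 and 0.0454 RPKM in TET KO EB D4, a log2 change of 3.40. Hoxb8 rose by 3.15, Hoxc8 by 2.81 and Hoxd9 by 2.76. Hoxc6, with 1.99, 1.56 and 2.60 RPKM at EB D6, had 0 reads in all 3 EB D4 libraries and was at least 17.7-fold higher when 3 reads per library are taken as the floor. Cdx2, an upstream activator of posterior Hox genes, rose by 2.23, to 53.5, 57.4 and 52.3 RPKM, against 12.7, 9.83 and 11.2 RPKM at EB D4. The posterior genes Hoxb9 and Hoxa13 rose by 2.66 and 1.36, and Hoxb1, an early anterior member, was at 2.73 to 3.62 RPKM at EB D6, against 4.36 to 4.64 RPKM at EB D4, and was not called.

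Genes of heart, connective tissue and basement membrane rose in part. Of 12 cardiac factors 7 rose and 0 fell (median 1.19), with Gata4 at 23.3, 23.6 and 23.6 RPKM at EB D6, against 3.22, 2.85 and 3.11 RPKM at EB D4. Of 13 sarcomere genes 5 rose, led by Tnnc1 (log2 change 3.52), Myl3 (3.02), Myh7 (2.15) and Tnni1 (1.96). Tnnt2, cardiac troponin T, stayed at 0.130 to 0.166 RPKM at EB D6 and 0.0103 to 0.116 RPKM at EB D4 and was not called, although voom on the recovered reads called it (log2 change 1.83). Myl7, an atrial light chain gene, had 5.08, 2.17 and 5.09 RPKM at EB D6, against 2.99, 0.456 and 1.36 RPKM at EB D4, so its groups overlapped. Its log2 change of 1.25 lost its call in 7 of 16 alternatives, among them the fit to the 6 TET KO libraries alone (adjusted p = 0.0899), and was 0.78 without library 2 of EB D4. Nkx2-5, with 0.0562, 0.661 and 1.1804 RPKM at EB D6 and 1.22, 0.588 and 0.643 RPKM at EB D4, was not called. Of 17 mesenchyme and collagen genes 7 rose and 0 fell, among them Pdgfra, a mesoderm receptor gene (2.95), and Col1a1 (2.57, to 7.68, 8.75 and 8.82 RPKM, against 1.176, 0.956 and 0.869 RPKM). Of 8 smooth muscle genes 0 rose and 3 fell, Tagln by 3.06.

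Several blood factor genes of TET KO EBs, among them Tal1, Gata1, Gfi1b and Lyl1, stayed below 1 RPKM at both days. Kdr, the VEGF receptor of the mesoderm that precedes blood and endothelium, rose, to 15.9, 17.0 and 17.9 RPKM at EB D6, against 1.39, 1.33 and 1.56 RPKM at EB D4 (log2 change 3.18), and Gata2 rose by 1.83. They were the 2 of 9 haemangioblast factors called, and 0 fell, while 5 of the 9 were below 1 RPKM in all 6 TET KO libraries. Tal1, the bHLH factor gene required for all blood (chr4:115056426-115071755), had 0.0978, 0.188 and 0.176 RPKM in TET KO EB D6, against 0.0212, 0.102 and 0.0611 RPKM in TET KO EB D4, from 23 and 9 reads in all. It was not called (log2 change 0.22, adjusted p = 0.292). Gata1, the master factor gene of red cells (chrX:7959260-7978071), had 0.316, 0.263 and 0.176 RPKM at EB D6, against 0.114, 0.0368 and 0.110 RPKM at EB D4, and was not called (log2 change 0.36, adjusted p = 0.0607), while voom on the recovered reads gave a called change of 1.42. Gfi1b and Lyl1, further blood factor genes, had 0 reads in all 6 libraries, which allows 3 reads per library, or at most 0.152 RPKM and 0.155 RPKM.

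Of 11 erythroid factors, Zfpm1, the GATA1 cofactor FOG1, rose by 1.87 and Myb fell by 1.47, while 6 of the 11 were below 1 RPKM in all 6 TET KO libraries. Of 7 globin and globin chaperone genes and of 12 genes of haem synthesis and iron uptake limma called 0. Of them 0 and 2 had an unadjusted p below 0.05, for which no share over all genes was counted. All 7 globin genes were below 1 RPKM in all 6 TET KO libraries and were tested because of their levels in other groups. Their lack of calls therefore says little about a change within TET KO. Hbb-bh1, the embryonic beta-like globin gene (chr7:103841637-103843164), had 0.699, 0.448 and 0.126 RPKM at EB D6 from 5, 3 and 0 reads, and 0 reads in all 3 libraries at EB D4. At this depth a difference in Hbb-bh1 was not detectable. Of 13 red cell membrane genes, Aqp1, also a gene of endothelium and mesothelium, rose by 2.80, and Rhd, Sptb and Car2 fell by 1.90, 1.82 and 1.04. In the 4 erythroid lists, 18 of 40 RefSeq promoters held a GATA word, and 1 of the 5 promoters of called members did. The 40 promoters belong to 31 genes, so some genes were counted more than once. Among all 32851 RefSeq promoters 26.5% held a GATA word, and the difference from this share was not tested. The 18 endothelial genes summed to 63.6 to 65.2 RPKM at EB D6 and 59.4 to 62.1 RPKM at EB D4, and 7 of them were below 1 RPKM in all 6 libraries. Of this list Cdh5, VE-cadherin, rose by 1.24 to 1.51, 1.35 and 1.45 RPKM, against 0.376, 0.192 and 0.403 RPKM, and Cldn5 and Flt4 fell by 1.53 each.

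**Figure D3:**
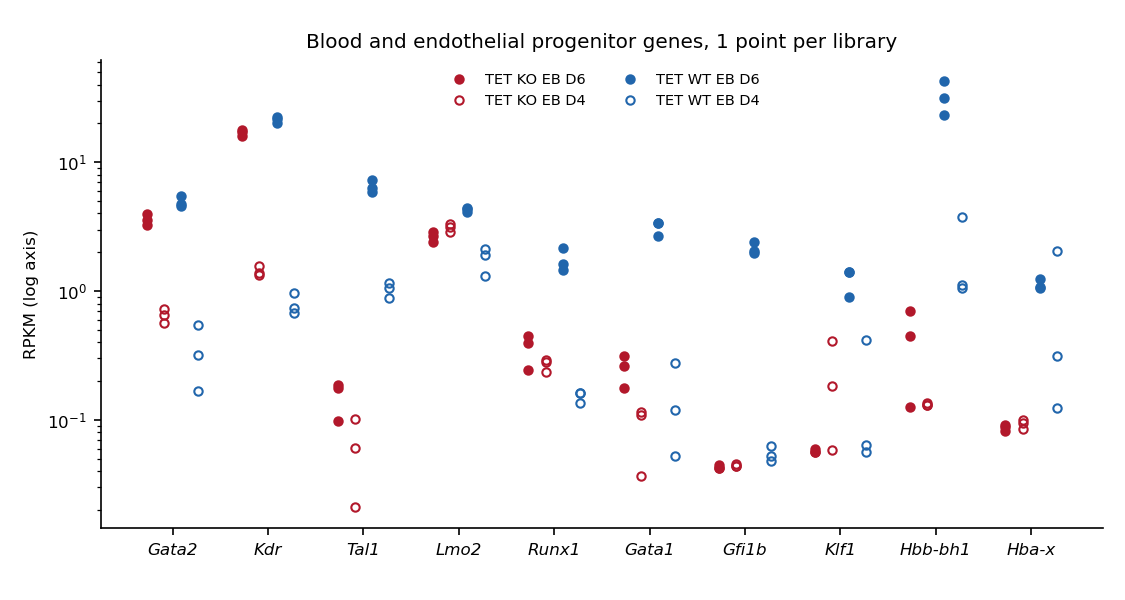
RPKM on a log axis of 10 genes of blood and endothelial progenitors, 1 point per library, with TET KO (red) left of TET WT (blue) and EB D6 (filled) left of EB D4 (open). Kdr and Gata2 rose in both lines, while Tal1 lies between 0.0978 and 0.188 RPKM in TET KO EB D6 and between 5.84 and 7.23 RPKM in TET WT EB D6. Points of genes without a read lie at the value of 0.9 reads.

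Of 26 imprinted genes 12 rose, 2 fell and 12 were not called (median 0.83). In TET WT 14 rose and 1 fell (median 1.23), and in DNMT WT 12 rose and 2 fell (median 0.61). H19, a maternally expressed noncoding RNA (chr7:142575529-142578143), had 1743, 1776 and 1757 RPKM in TET KO EB D6, against 78.3, 72.9 and 70.3 RPKM in TET KO EB D4 (log2 change 4.57 ± 0.10, adjusted p = 5.89e-20). Its neighbour Igf2, a paternally expressed growth factor gene, had 63.7, 63.2 and 66.3 RPKM at EB D6, against 2.92, 3.54 and 3.44 RPKM at EB D4. Dlk1 rose by 4.15, to 15.7, 17.0 and 17.5 RPKM, against 0.427, 0.396 and 0.599 RPKM, while Meg3 of the same imprinted cluster was at 13.2 to 16.4 RPKM and 11.97 to 12.9 RPKM and was not called. Phlda2 rose by 3.15 and Peg10 by 2.29, and Snrpn (-1.87) and Igf2r (-1.19) fell. The sources used here do not state whether counting used the strand, so overlapping antisense pairs such as Igf2r and Airn cannot be told apart fully.

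Of 24 germline genes whose promoters are silenced by DNA methylation in most tissues, 13 fell, 0 rose and 11 were not called (median -1.11). In TET WT 17 of the 24 fell (median -1.61). Ddx4, the germline RNA helicase gene also called Vasa, had 8.90, 7.32 and 7.85 RPKM in TET KO EB D6, against 21.2, 23.5 and 21.9 RPKM in TET KO EB D4. Mael, a piRNA pathway gene, had 3.76, 4.49 and 3.22 RPKM, against 16.4, 17.8 and 15.6 RPKM, and Tuba3a, a testis tubulin gene, fell by 2.105 and Taf7l by 1.97. The remaining levels at EB D6 were above those of TET WT EB D6 for Ddx4 (mean 0.190 RPKM in TET WT) and Mael (0.0487 RPKM). Of 13 genes of the DNA methylation machinery only Dnmt3l, the cofactor of de novo methylation, was called, with 7.54, 7.54 and 7.55 RPKM at EB D6, against 21.3, 19.9 and 19.9 RPKM at EB D4 (log2 change -1.38).

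Of 16 interferon response genes 12 fell and 0 rose (median -1.27). Isg15, a ubiquitin-like antiviral modifier gene, had 1.93, 0.848 and 0.567 RPKM in TET KO EB D6, against 17.6, 15.1 and 12.7 RPKM in TET KO EB D4 (log2 change -3.35). Oasl2 had 0.538, 0.733 and 0.767 RPKM, against 9.61, 9.01 and 10.1 RPKM (log2 change -3.10), and Rtp4 and Ifit1 fell by 2.63 and 2.30. The groups did not overlap in 15 of the 16 genes, beside 58.6% of all genes tested. In TET WT 2 members of this list fell and 1 rose, while 9 of the 16 lay wholly lower at EB D6 and 2 wholly higher. TET WT means were at most 1.28 RPKM for Isg15 and 1.03 RPKM for Oasl2 at EB D4, but the list as a whole was not that low. Its summed level was 99.86 to 177.05 RPKM in TET WT EB D4 and 42.58 to 50.02 RPKM in TET WT EB D6. In TET KO it was 192.28 to 209.5 RPKM at EB D4 and 56.65 to 66.62 RPKM at EB D6.

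Several groups served as comparison. Of 18 genes of S and M phase and of 14 housekeeping genes 0 were called in either direction (medians -0.19 and -0.13), although 8 and 3 of them had an unadjusted p below 0.05 and 14 and 7 did not overlap between the days. Of all 15267 genes tested, 58.6% did not overlap and 6172 had a limma adjusted p below 0.05, a stricter measure than the unadjusted p of the lists. Genes with an unadjusted p below 0.05 were not counted over all genes, so those list counts have no like background. Of 23 glycolysis and hypoxia genes Vegfa rose by 1.60 and Pdk1 and Adm fell by 1.16 and 1.47. Among 16 p53 targets Pmaip1 fell by 1.89. The calls among p53 targets and among glycolysis and hypoxia genes lie near the share called over all genes tested, 9.22%. Of 15 G1 cyclins and CDK inhibitors Cdkn1c, Mycn and Ccnd3 rose and Ccne1 fell. Of markers of other cells an EB can hold, visceral endoderm gave 6 higher and 3 lower of 19, led by Spink1 with 80.0, 56.4 and 71.1 RPKM at EB D6, against 2.86, 0.637 and 0.211 RPKM at EB D4, while Afp, its defining fetal protein, was at or below 0.484 RPKM in all 6 libraries. Neuroectoderm gave 1 higher and 3 lower of 10, with Sox1 and Pax6 at or below 0.130 RPKM, and trophoblast gave 4 higher and 2 lower of 10. The summed level of the visceral endoderm list was 262 to 289 RPKM at EB D6 and 259 to 276 RPKM at EB D4. That of the neuroectoderm list was 16.6 to 18.9 RPKM at EB D6 and 45.6 to 52.8 RPKM at EB D4, and that of the trophoblast list 185 to 190 RPKM at EB D6 and 99 to 107 RPKM at EB D4. Their part in the other changes was not tested.

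Fewer genes were called in TET KO than in its parent, and the changes were smaller on average. TET WT gave 2221 calls (14.5%), with 1276 higher (8.36%) and 945 lower (6.19%). After centring 40.6% of its calls were higher in place of 57.5%. Without library 2 of TET WT EB D4 the split turned to 1036 higher and 1164 lower (47.1% higher). Of the 2221 calls 424 higher and 470 lower were shared with TET KO in the same direction, which is 63.5% of the TET KO calls and 40.3% of the TET WT calls. The root mean square log2 change over all genes was 0.654 in TET KO and 0.825 in TET WT, and across genes, which are not independent replicates, the changes correlated at r = 0.71. In DNMT WT 1959 genes (12.8%) were called, 990 higher (6.48%) and 969 lower (6.35%), and 62.2% of the TET KO calls were shared in direction. The change itself differed between TET KO and TET WT for 1136 genes (7.44%), more positive in TET KO for 343 (2.25%) and more negative for 793 (5.19%), while the median of this difference over all genes was -0.12. Centring each library on its median turned the split to 526 and 544, and leaving out library 2 of TET WT EB D4 to 475 and 653, so the excess of negative differences was smaller without that library and nearly gone after centring. Against DNMT WT 1007 genes (6.60%) differed, 315 (2.06%) positive and 692 (4.53%) negative, or 367 and 653 after centring, and 161 positive and 451 negative differences were found against both wild-type lines, in comparisons that share the TET KO libraries. Within a day, TET KO and TET WT differed for 767 genes at EB D6 (5.02%), 495 higher in TET KO (3.24%) and 272 lower (1.78%), and for 1468 genes at EB D4 (9.62%), 1167 higher (7.64%) and 301 lower (1.97%). The median difference over all genes was 0.05 at EB D6 and 0.19 at EB D4. The EB D4 comparison includes library 2 of TET WT. Its counts were not repeated without that library or after centring, so how far its excess of higher genes depends on scaling was not tested.

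**Figure D4:**
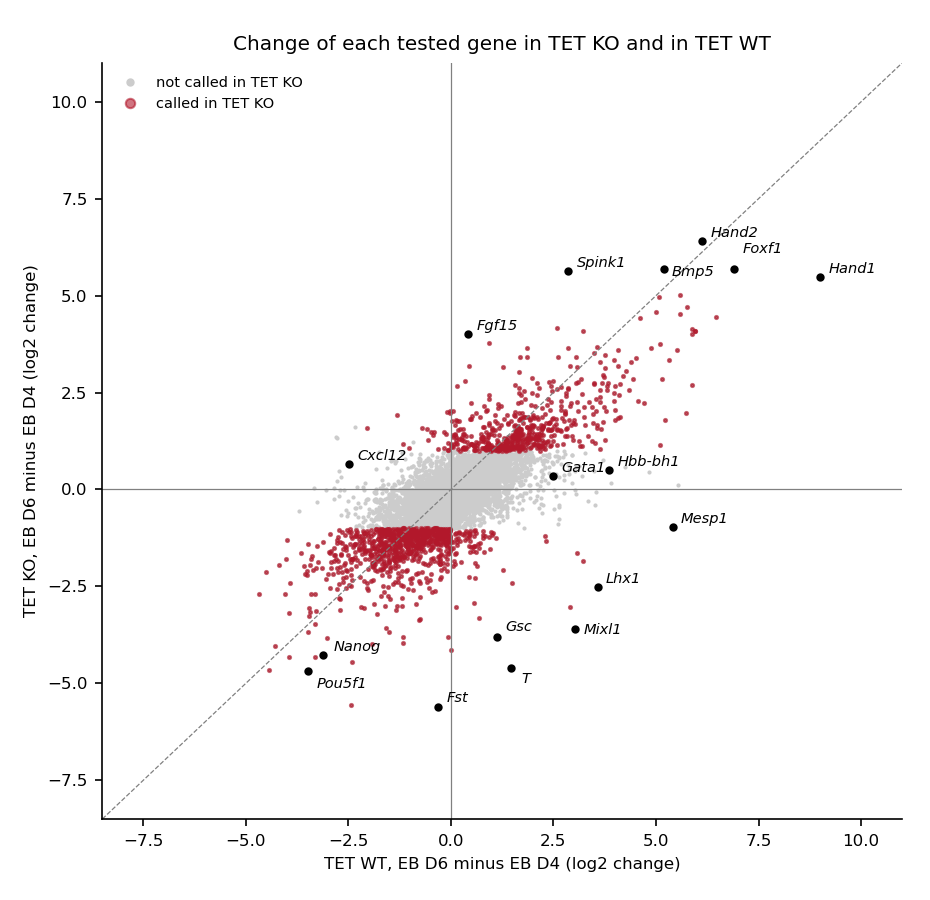
Log2 change, EB D6 minus EB D4, of each of 15267 genes in TET KO (vertical) and in TET WT (horizontal), with genes called in TET KO in red, named genes in black and equal change on the dashed line. T, Mixl1, Lhx1 and Gsc lie at the lower right, lower at EB D6 in TET KO and higher in TET WT, and Hand2 and Bmp5 lie near the line.

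Most streak and organiser genes had a more negative change in TET KO than in TET WT, with a median difference of -2.01 in both lists. Of the 11 streak genes 9 fell in TET KO and in TET WT 5 rose and 3 fell, and the difference was called negative for 9 and positive for 1. Of the 10 organiser genes it was called negative for 8 and positive for 1. T fell in TET KO and rose in TET WT, where it had 21.4, 21.5 and 20.2 RPKM at EB D6, against 6.67, 6.73 and 8.80 RPKM at EB D4, so the lines were closer at EB D6 (15.7 RPKM in TET KO, 21.0 RPKM in TET WT) than at EB D4 (394 RPKM in TET KO, 7.40 RPKM in TET WT). The difference of the changes was -6.07 ± 0.23 (SE, limma adjusted p = 1.77e-14). For Mixl1 it was -6.63, for Mesp1, a factor gene of nascent mesoderm, -6.39 and for Lhx1 -6.10. Mesp1, not called in TET KO (log2 change -0.98, and called under several alternatives at -1.003 to -1.06), had 4.44, 5.03 and 4.84 RPKM in TET KO EB D6 and 10.9, 10.1 and 8.74 RPKM in TET KO EB D4, against 27.3, 24.9 and 20.2 RPKM in TET WT EB D6. In TET WT EB D4 all 3 libraries had 0 reads of Mesp1, so TET WT EB D6 was at least 79.5-fold higher with a floor of 3 reads per library, and the size of the difference depended on the scale, with -5.45 at a pseudocount of 1 and -10.13 under voom. Aplnr, the apelin receptor gene of early mesoderm, was level in TET KO (21.9 to 22.4 RPKM at EB D6 and 19.4 to 21.8 RPKM at EB D4) and rose by 5.55 in TET WT. In all, 14 genes fell in TET KO and rose in TET WT, among them T, Mixl1, Lhx1, Gsc, Evx1, Sp5 and Cer1, and 4 did the reverse. In DNMT WT, Lhx1 (2.46) and Evx1 (2.84) rose as well, but T (0.23), Mixl1 (0.24), Gsc (-0.70), Sp5 (-0.25) and Cer1 (-0.02) were not called, and of the streak list 2 genes rose and 4 fell. The difference between TET KO and DNMT WT was still called negative for each of these 7 genes.

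Mesoderm genes rose in both lines, some from a higher start in TET KO. Hand2 reached 48.97 RPKM in TET KO EB D6 and 37.4 RPKM in TET WT EB D6, and the changes did not differ by the test (0.27, adjusted p = 0.314, SE 0.18). Hand1 reached 93.02 RPKM in TET KO EB D6 and 365 RPKM in TET WT EB D6, and its change was smaller in TET KO by 3.54 (adjusted p = 8.65e-11). Msx1 stood at 27.6, 28.9 and 25.3 RPKM already in TET KO EB D4, against 0.884, 0.458 and 1.52 RPKM in TET WT EB D4. Of the 14 mesoderm genes 7 had a more negative change in TET KO and 0 a more positive one.

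Most erythroid factors rose in TET WT and were not called in TET KO. Of 11 erythroid factors 8 rose in TET WT, and the change was more negative in TET KO for 8 and more positive for 0. Tal1 had 5.84, 6.32 and 7.23 RPKM in TET WT EB D6 and 1.05, 0.883 and 1.16 RPKM in TET WT EB D4, and its change was lower in TET KO by 1.96 (adjusted p = 4.97e-07). Hbb-bh1 had 23.1, 31.7 and 42.4 RPKM in TET WT EB D6 and 1.12, 1.05 and 3.76 RPKM in TET WT EB D4, and the difference of the changes was -3.36 (adjusted p = 1.55e-05). On the recovered reads voom put these differences at -1.24 for Tal1 and -2.02 for Hbb-bh1 and called neither. For Gata1 it was -2.13, for Klf1, a red cell zinc finger factor gene, -1.71 and for Runx1 -1.61. Kdr rose in both lines, and its difference of -0.91 did not reach the size asked for, but was called under 3 alternatives with values of -1.003 to -1.12.

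Hox and Cdx genes differed in both directions. In TET WT 13 of 32 rose with a median of 0.44, and the change was more positive in TET KO for 12 and more negative for 5. In DNMT WT 20 of 32 rose with a median of 1.57, and against that line the change was more positive in TET KO for 4 and more negative for 8, so the direction depended on the wild-type line. Hoxb9 had 5.13, 4.55 and 5.40 RPKM in TET KO EB D6 and 0.397, 0.244 and 0.485 RPKM in TET KO EB D4, against 0.107, 0.174 and 0.0313 RPKM in TET WT EB D6 and 0.0373 to 0.05005 RPKM in TET WT EB D4. Fgf15, a growth factor gene of the early embryo, had the largest positive difference among named genes (3.60), with 10.9, 10.2 and 10.5 RPKM in TET KO EB D6 and 0.0912, 0.264 and 0.204 RPKM in TET KO EB D4, against 12.6 to 13.4 RPKM in TET WT EB D6 and 7.20 to 12.9 RPKM in TET WT EB D4. Tgfb2, a TGF-beta ligand gene, had 18.9, 19.6 and 21.3 RPKM in TET KO EB D6 and 0.819, 1.24 and 0.924 RPKM in TET KO EB D4, while TET WT stayed at or below 0.882 RPKM. In DNMT WT Tgfb2 rose too, to 7.10, 7.37 and 6.94 RPKM at EB D6, against 0.217 and 0.327 RPKM at EB D4 (log2 change 3.31), and the change in TET KO was not called different from it (0.47, adjusted p = 0.151).

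**Figure D5:**
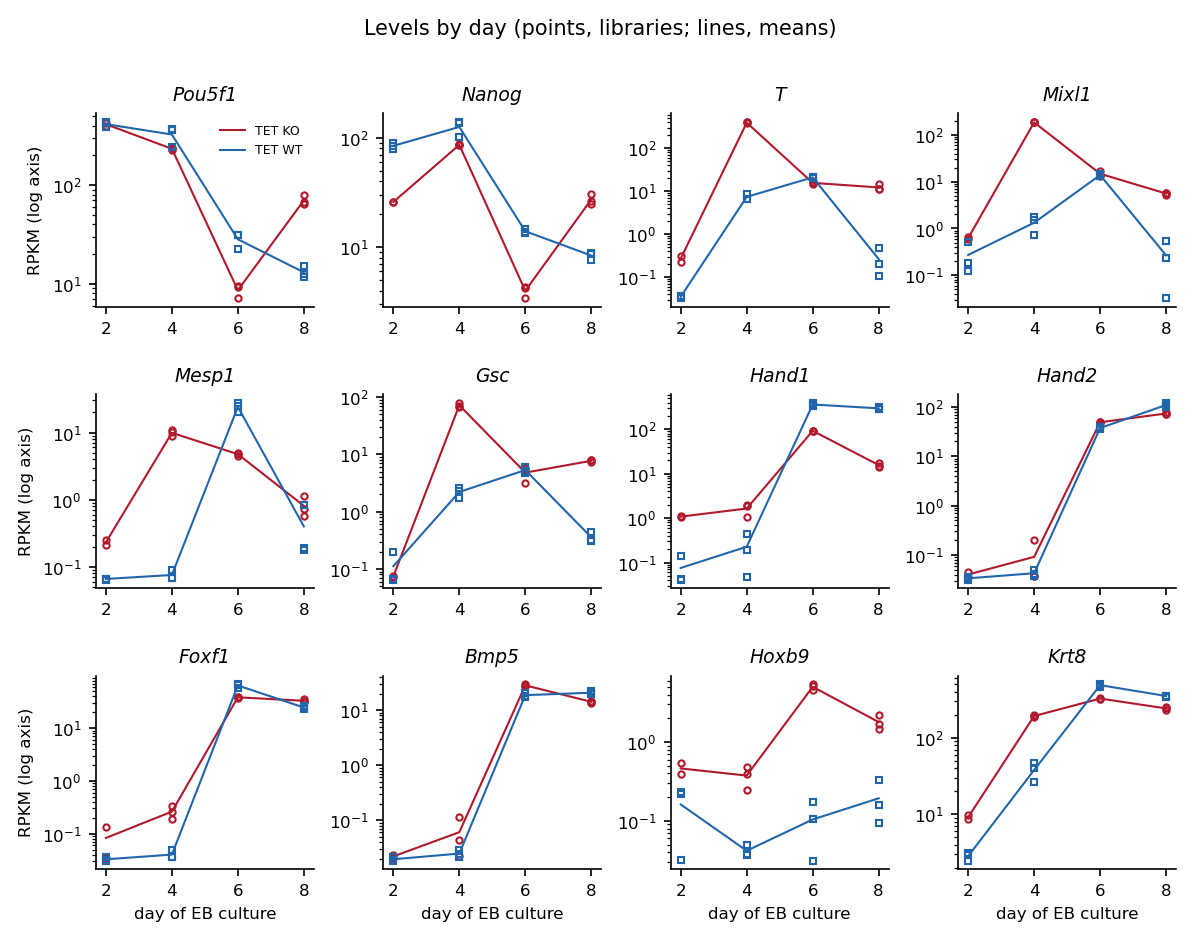
RPKM on a log axis against day of EB culture for 12 genes in TET KO (red) and TET WT (blue), points for libraries and lines for means. T and Mixl1 peak at day 4 in TET KO and at day 6 in TET WT, and Pou5f1 and Nanog are lowest at day 6 in TET KO.

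Days 2 and 8 frame these 2 days. In TET KO, with 2 libraries at EB D2, T averaged 0.272, 394, 15.7 and 12.3 RPKM at days 2, 4, 6 and 8. Pou5f1 averaged 413, 233, 8.64 and 70.0 RPKM, and Nanog 25.8, 86.2, 3.98 and 27.3 RPKM, so that day 6 was the lowest of the 4 days for both. Hand1 averaged 1.08, 1.65, 93.02 and 15.8 RPKM, and Hand2 0.0400, 0.0913, 48.97 and 73.7 RPKM.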

How the data were processed

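The authors deposited 1 table of log2 RPKM (reads scaled by gene length and library depth) per gene, with 1 column per library. The tools named are Trim Galore 0.6.1, cutadapt 1.18 and HISAT2 2.1.0, with the GRCm38 build, per the submitters' processing notes. How reads were counted, with what use of strand and which annotation, is not given in the sources used here. Per the labels' protocols, column-purified RNA was treated with DNase and made into stranded libraries after oligo-dT selection.

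Of 35269 entries 39 repeats of an identifier were left out. Values were changed to log2(RPKM + 0.5), genes reaching 1 RPKM in 2 or more libraries were kept, and limma 3.58.1 (R 4.3.3) was fitted to the 23 libraries of EB D4 and EB D6 of all 4 genotypes, with Benjamini-Hochberg adjustment over 15267 genes. Whole reads were recovered from the deposited log2 values with gene lengths of GENCODE M21. Of values of 2 to 100 reads 97.09% were whole within 0.1, and the totals behind the RPKM scaling were 7.76 to 13.9 megareads. In the shallowest of the 6 TET KO libraries 1 read on a gene of 2 kb is 0.0465 RPKM. Genes with 0 reads are listed at what 0.9 reads would give. Floors of 3 reads cover counting error only. All value columns had a sample or group. The fit was tested on simulated data.

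Named genes were the Tet genes, the 15 largest rises and falls with a mean of at least 5 RPKM and no overlap, the 8 largest differences from TET WT in each direction, up to 4 called members per list and some fixed markers. Members and lists were chosen with earlier results of these data known, and other genes named were chosen after their values were seen. No pairing of libraries by replicate number was visible. Correlations of same-numbered deviations were -0.01, 0.007 and 0.004 in TET KO and 0.037, -0.033 and -0.045 in TET WT. Such values cannot exclude that same-numbered libraries shared a culture or batch. Promoters are RefSeq entries of GRCm38.p6, and Mixl1, Hand1 and Foxf1 are named without one. Alternatives were other pseudocounts, filters, scalings and sets of libraries, a replicate block, libraries left out and voom on the recovered reads.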

Additional observations from a re-analysis of the deposited data

Results flagged for a closer look

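The change between EB D4 and EB D6 differed between TET KO and TET WT for 1136 genes and between TET KO and DNMT WT for 1007 genes, by limma's test of the difference itself. Unless another line is named, values here are differences of log2 changes, TET KO minus TET WT. Each gene passed that test against TET WT in the fit to the 23 libraries. Among streak, organiser and early mesoderm genes the differences were -6.63 for Mixl1, -6.39 for Mesp1, -6.10 for Lhx1, -6.07 for T, -5.93 for Cer1, -5.43 for Aplnr, -5.28 for Fst, -5.06 for Evx1 and -1.85 for Eomes. Among pluripotency genes they were -1.17 for Nanog, -1.20 for Pou5f1 and 1.15 for Sox2. Over the 10 general pluripotency genes the difference was called positive for 4 and negative for 2 (median 0.11). Blood genes gave -3.36 for Hbb-bh1, -2.13 for Gata1, -1.96 for Tal1, -1.71 for Klf1 and -1.61 for Runx1. Markers of other cells gave -1.76 for Col1a1, -1.42 for Nkx2-5 and -1.11 for Afp. Of 21 alternatives, Nkx2-5 lost its call in 4, among them the replicate block (adjusted p = 0.0708) and the 12 TET KO and TET WT libraries alone (adjusted p = 0.0543), and Afp lost its call in 7 and turned to 0.45 under voom. The largest positive differences were 3.60 for Fgf15, 3.22 for Mfap3l, 3.17 for Tmem54, 3.15 for Cxcl12, 2.99 for Ccnb1ip1, 2.92 for Uchl1, 2.86 for Tgfb2 and 2.76 for Spink1. Of these 8, 5 were also called against DNMT WT and all 8 had the same sign there, while all of the 8 largest negative differences were called against it. Spink1 was not called against DNMT WT (0.79, limma adjusted p = 0.549). For Ccnb1ip1, TET WT EB D4 had 4.98, 36.3 and 5.92 RPKM, the high value in the library that stands apart. Its difference from TET WT was not called under voom (3.51, adjusted p = 0.219).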

How the results depend on the processing

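With a pseudocount of 0.1 the TET KO comparison gave 2157 calls, and with voom on the recovered reads 2443, against 1407, while TET WT gave 3468 with voom, against 2221. With a pseudocount of 1 the differences from TET WT and DNMT WT fell to 752 and 648 genes. Leaving out 1 library at a time gave 1409 to 1443 calls in TET KO, 2196 to 2322 in TET WT, and 1117 to 1242 and 969 to 1036 for the differences. With the replicate block the counts were 1402, 2215, 1130 and 1008, although no pairing by number was visible. The share of TET WT calls that were higher was 57.5%, against 40.6% after centring and 47.1% without library 2 of TET WT EB D4. The difference for Afp turned to 0.45 (adjusted p = 0.811) under voom, and the cause was not tested. Of the named genes' changes in TET KO, 16 of the values under alternatives lost their call and 10 gained one, among them Tet3, Cdh5, Cdx1 and Myb, lost with a pseudocount of 1. The difference for Pou5f1 was -0.99 and not called without library 2 of TET WT EB D4, and that for Nanog was -0.98 when centred. For genes without a read in TET KO, such as Gfi1b, a change within TET KO was not detectable at this depth.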
